A study of Mus musculus with 6 samples.

Results

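Organoids recovered from a subcutaneous tumour were compared with the organoids from which that tumour was grown, across 14727 genes measured on 2 of the 6 arrays of the study. Both cultures came from mouse fallopian tube and carried the activating allele Pik3caH1047R together with loss of Trp53. The tumour-derived culture was grown out of a subcutaneous tumour with the histology adenocarcinoma, and the source culture was sampled before inoculation. The labels gave 1 array for each of these cultures, and genes were kept where 1 probe or more was well above background on 1 array or both. The other 4 arrays hold cyst-derived organoids with Apc580D and Trp53 loss, their own source organoids, organoids with Trp53 loss alone, and control organoids from Trp53flox/flox mice that received the empty vector pLKO.1, so that every culture but the control lacks Trp53 by its label. The design names 3 pairs of source and tumour-derived organoids, of which the Pik3ca/Trp53 and Apc/Trp53 pairs are described here and the other is not analysed here. Per the labels all 6 cultures were expanded in the same serum-free medium, which holds EGF, R-spondin, the BMP antagonist Noggin, a Notch ligand peptide, a ROCK inhibitor and a GSK3 inhibitor that activates Wnt signalling. Each culture is 1 array, so no difference below has a replicate error, a test or a p-value.

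Pik3ca encodes the catalytic subunit of PI3-kinase alpha, which makes the lipid messenger that activates AKT, and the H1047R allele raises its activity. AKT keeps the FOXO transcription factors out of the nucleus, so that FOXO target genes are normally low where PI3-kinase is active. p53, the product of Trp53, switches on cell-cycle inhibitors and death genes after DNA damage. The fallopian tube, or oviduct in the mouse, descends from the Müllerian duct, and its epithelium holds secretory cells, marked by Pax8 and Ovgp1, and multiciliated cells, marked by Foxj1. Mammary epithelium has a basal layer of contractile cells with keratins 5 and 14, and a luminal layer that makes milk proteins.

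Levels are log2 processed signals minus the array's 75th percentile, so a level of 0 is the signal of the probe at that percentile, and a difference is the tumour-derived level minus the source level. Between 45.4% and 51.0% of 56605 probes were well above background on the 6 arrays, with 48.6% on the tumour-derived array and 45.4% on the source array. Probes printed several times on an array differed between their copies by a median SD of 0.0390 on the tumour-derived array (285 probes) and 0.0849 on the source array (236 probes), on the log2 scale, which is spot error within an array and not error between cultures. No spot was saturated, and all 6 arrays sat on 1 slide scanned once. Both tumour- or cyst-derived arrays lay in row 2 of the slide and both of their source arrays in row 1, so that slide row and derivation cannot be told apart within a pair. Over 23467 probes above background on all 6 arrays, the tumour-derived array correlated with the other 5 at 0.926 to 0.953, and the source array correlated with the 4 cultures other than its own derivative at 0.960 to 0.977. Where a probe was dim, its signal was raised to the lowest signal well above background on that array, which is a level of -4.56 on the tumour-derived array and -4.24 on the source array, and the fold is given as "at least".

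Trp53 had a level of -1.64 on the tumour-derived array, well above background, and of -5.09 on the source array, where its probe was dim, which is at least 6.07-fold higher on the tumour-derived array. On the other arrays it read -6.70 in cyst-derived Apc/Trp53 organoids, -3.59 in their source, -6.62 with Trp53 loss alone and 0.88 in the control. The tumour-derived array thus lay above the 4 arrays of the other Trp53-loss cultures, with a difference of -2.52 to the control. A Trp53 signal above background goes against a label of Trp53 loss if the probe lies in the deleted part of the gene, and the annotation used here does not place it, so below "tumour-derived array" means the array labelled as such. Pik3ca had a level of -0.23 on the tumour-derived array and 1.94 on the source array, 4.51-fold lower, and whether its probe tells the mutant from the normal transcript is not given in the sources used here. On the remaining arrays Pik3ca read between 0.75 and 2.10, all above its level on the tumour-derived array. Apc was near the background limit on both, at -3.69 on the tumour-derived array and -4.22 on the source array.

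More genes differed between the tumour-derived array and its source than between the cyst-derived array and its own source, by these counts of single arrays. Of the 14727 genes, 2148 (14.6%) were higher and 1537 (10.4%) lower on the tumour-derived array by 2-fold or more, with signals as measured. Scaling each array to its median in place of its 75th percentile turned this excess round, to 1923 higher and 1970 lower. With dim signals at the background limit the shares were 11.4% higher and 9.21% lower, and the median difference over all genes was -0.04. The shares as measured, 14.6% and 10.4%, are those to set beside the counts over all measured members of each list below. For members above background on both arrays the background is lower. With probes above background on both arrays, 1133 of 12987 genes were higher and 1031 lower by 2-fold or more. The list counts need only some probe of a gene above background on each array, which 12996 genes had, so the 2 filters are close but not the same. In the Apc/Trp53 pair 11.3% of 14888 genes were higher and 8.03% lower by 2-fold or more. At 16-fold or more, counted with dim signals at the limit, the Pik3ca/Trp53 pair had 165 genes higher and 64 lower, and the Apc/Trp53 pair had 49 higher and 15 lower. The tumour-derived array also held 514 genes that were above background on no other array of the 6, against 118 for its source, and 169 genes that were dim there alone, against 151 for its source. The cyst-derived array held 410 genes above background on no other array, against 121 for its source, and 75 dim there alone, against 11 for its source. Probes of the same gene differed among themselves by a median SD of 0.212 over the 5218 genes with several probes.

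Genes of several tissues stood among those that differed most between the 2 arrays. Of the 32 genes named for the largest differences higher on the tumour-derived array, 9 were in the lists of mammary and basal gland epithelium and 17 in no list. Those lists include mammary lineage factors and myoepithelial markers, both listed after the values were seen. Sox10 and Igfbp5 count among the 9 only through these later lists. The share of all measured genes that lie in the lists was not computed, so the 9 are a description. Of the 32 named for the largest differences lower, 3 were in the list of Müllerian factors, Msx1, Wt1 and Foxa2, and 18 in no list. Genes of mammary and basal gland epithelium that were higher, at the top or below it, included the caseins Csn3 and Csn1s1, alpha-lactalbumin (Lalba), transferrin (Trf), keratins 5, 14 and 17 and Sox10, and the Müllerian factors Gata6 and Sox17 were also lower. Irx3 and Irx5, in the same list as the Müllerian factors, were higher. The oviduct genes Ovgp1, Emx2, Pax8 and Hoxb7 differed by less than 2-fold. The tumour-derived array, labelled as fallopian tube, thus had higher signals for several genes of mammary and basal gland epithelium. Whether its tissue differs from its label was not tested. The part of these lineage genes in the other results was not tested either. RNA of a whole culture was measured, so fewer cells of a type and less RNA per cell cannot be told apart.

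**Figure D1:**
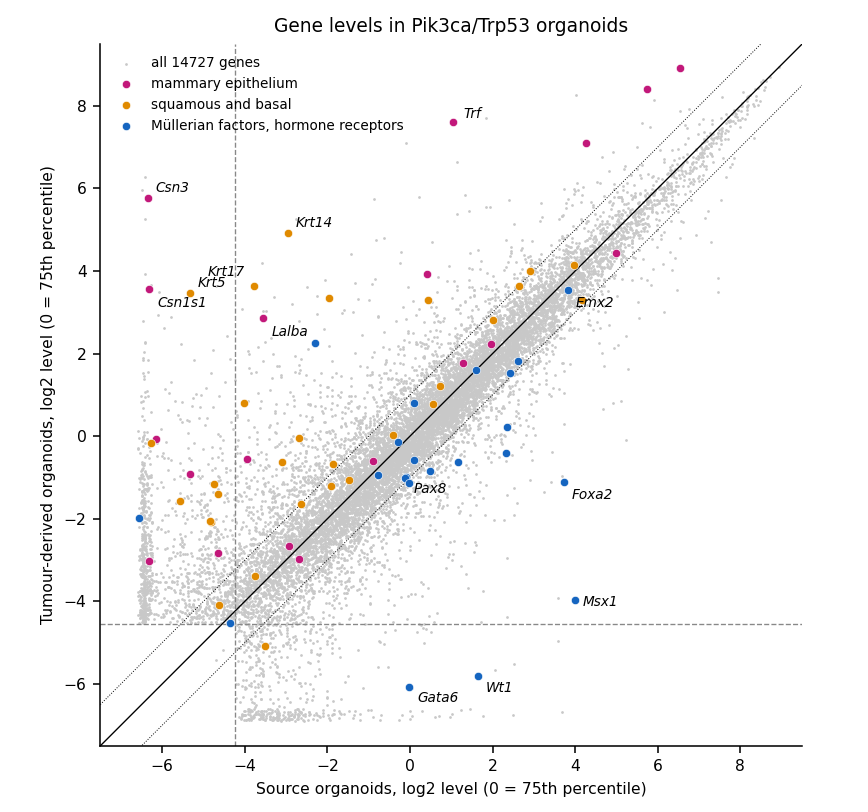
Level of every measured gene on the tumour-derived array (vertical) and on the source array (horizontal), both log2 with 0 at the array's 75th percentile, 1 array each. Dashed grey lines mark the background limits of -4.56 and -4.24, dotted lines mark 2-fold, and coloured points are members of 3 gene lists. Csn3, Krt14 and Trf lie far above the diagonal, Msx1 and Foxa2 far below it, and Emx2 and Pax8 between the dotted lines.

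Among 23 genes of mammary epithelium, 19 were measured, 13 of them higher and 0 lower by 2-fold or more on the tumour-derived array, against 14.6% higher and 10.4% lower over all genes, and 4 were dim on both arrays. The 13 stayed at least 2-fold higher with dim signals at the limit, and the list's median difference was 2.84, or 2.66 with dim signals at the limit. A gene dim on the source array entered only through the array where it was high, so in this and every other list such genes could count only as higher. Of the 13 mammary genes above background on both arrays, 7 were at least 2-fold higher and 0 lower. Csn3, which encodes kappa-casein, the protein that keeps casein micelles soluble, read 5.77 on the tumour-derived array and -6.35 on the source array, at least 1032-fold higher. Csn1s1, an alpha-casein, read 3.56 on the tumour-derived array and -6.31 on the source array, at least 223-fold higher. Both caseins were dim on each of the other 4 arrays, between -7.06 and -6.61. Lalba, the subunit that directs lactose synthesis, read 2.85 on the tumour-derived array and -3.55 on the source array, 84.7-fold higher. Trf, the iron carrier that is also a milk protein, read 7.61 on the tumour-derived array and 1.05 on the source array, 94.2-fold higher. On the array of Trp53 loss alone Trf read -3.25, and on the control array -4.19, both below its level on the Pik3ca/Trp53 source array. Elf5, the factor that drives alveolar luminal cells, read 3.92 on the tumour-derived array and 0.42 on the source array, 11.3-fold higher. Prlr, the prolactin receptor, read -0.92 on the tumour-derived array and -5.34 on the source array, where it was dim, at least 10.0-fold higher, with an SD of 3.15 between the differences of its 2 probes. Cel, the bile salt-stimulated lipase of milk, was 10.5-fold higher, and the mucin Muc15 at least 18.1-fold higher with an SD of 2.85 between its probes. The probes of Csn3 differed by an SD of 2.88.

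The milk genes did not all take this direction. Csn2, which encodes beta-casein, was dim on both arrays, at -6.78 on the tumour-derived array and -6.47 on the source array, and Wap, the whey acidic protein, was dim on both, at -4.79 on the tumour-derived array and -6.41 on the source array. Prolactin acts on casein genes through STAT5, whose preferred site is TTCNNNGAA. A match to it on either strand was found in 7.02% of 32851 RefSeq promoters, taken as the 250 bases before the transcript start (GRCm38.p6), and in 5 of the 17 mammary genes with a promoter in that table, Csn1s1, Csn2, Glycam1, Pip and Prlr. Here and for the motifs below, the percentage is per promoter, whereas a gene counts if any of its promoters has a match. A gene with several promoters has more chances, so the percentage and the gene count are not like measures. The caseins Csn1s1 and Csn2 are shown because both carry 1 such match, in capitals, and Csn1s1 but not Csn2 was above background on the tumour-derived array. The Csn1s1 bases lie at chr5:87665958-87666207 on the plus strand with the match 100 to 92 bases before the start, and the Csn2 bases at chr5:87699426-87699675 on the minus strand with the match 93 to 85 bases before the start.
Csn1s1: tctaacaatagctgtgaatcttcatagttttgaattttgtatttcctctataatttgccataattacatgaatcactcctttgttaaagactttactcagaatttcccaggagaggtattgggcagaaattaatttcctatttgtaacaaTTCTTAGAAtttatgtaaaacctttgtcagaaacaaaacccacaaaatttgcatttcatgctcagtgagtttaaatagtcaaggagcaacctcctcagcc
Csn2: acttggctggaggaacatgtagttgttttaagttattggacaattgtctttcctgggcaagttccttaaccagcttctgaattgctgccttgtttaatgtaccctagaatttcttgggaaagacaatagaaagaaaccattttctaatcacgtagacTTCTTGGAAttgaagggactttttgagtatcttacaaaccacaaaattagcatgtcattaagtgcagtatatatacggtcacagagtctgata
Glycam1 and Pip, named for their match, were 1.23-fold higher and 1.22-fold lower on the tumour-derived array, and a match describes the sequence alone.

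A wider set of gland genes was listed after these values were seen and is given as a description. Of 21 transcription factors of mammary lineages, all measured, 13 were at least 2-fold higher on the tumour-derived array, 12 with dim signals at the limit, and 1 was lower. Of the 16 above background on both arrays, 8 were higher and 1 lower by as much. Sox10, a factor of mammary progenitors and of neural crest, read 3.67 on the tumour-derived array and -6.27 on the source array, at least 240-fold higher. Tfap2c, an AP-2 factor of luminal cells, read 2.03 on the tumour-derived array and -6.44 on the source array, at least 77.1-fold higher with an SD of 2.65 between its probes. Trps1, Foxa1 and Gata3, all expressed in luminal mammary cells, were 17.6-fold, 10.1-fold and 4.37-fold higher. Stat5a, at 2.23 on the tumour-derived array and 1.97 on the source array, differed by 1.2-fold. Among 14 Schwann and neural crest markers, which Sox10 also serves, 3 of 9 measured were at least 2-fold higher and 2 lower, and S100b, Foxd3 and Cdh19 were dim on both arrays. Of 13 markers of salivary, lacrimal and sweat glands, 1 of 6 measured was at least 2-fold higher, and none with dim signals at the limit, while 2 were lower with either treatment of dim signals. Of 9 ionocyte markers, 2 of 5 measured were at least 2-fold higher and 1 lower. Foxi1, the master factor of ionocytes, read 3.92 on the tumour-derived array and -6.43 on the source array, at least 285-fold higher, and the proton pump subunit Atp6v1b1 was at least 49.5-fold higher, while Ascl3 was dim on both and Slc26a4 read 2.88 on the tumour-derived array and 2.89 on the source array.

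Basal epithelial genes were also more often higher than lower. Of 35 squamous and basal markers, 29 were measured, 16 of them higher and 1 lower by 2-fold or more on the tumour-derived array, with a median difference of 1.19. Of the 21 above background on both arrays, 10 were higher and 0 lower by as much. Krt14 read 4.92 on the tumour-derived array and -2.96 on the source array, 237-fold higher. Krt5, its partner keratin, read 3.47 on the tumour-derived array and -5.34 on the source array, at least 210-fold higher. Krt17 and Krt6a, keratins of wounded and appendage epithelium, were 170-fold and 39.1-fold higher. These 4 keratins read -1.24 or lower on the other 4 arrays. Trp63, the master factor of basal cells, was at least 2.89-fold higher, at -0.05 on the tumour-derived array and -2.70 on the source array, but its 2 probes differed by an SD of 3.86, and the probe above background on both arrays gave a difference of -0.09. Lgals7 was 28.3-fold, Cdh3, the cadherin of basal and myoepithelial cells, at least 8.40-fold, and the hemidesmosomal collagen Col17a1 at least 6.39-fold higher. Of 23 myoepithelial and basal gland markers, listed after their values were seen, 17 of 21 measured were at least 2-fold higher, 16 with dim signals at the limit, and 1 was lower. Of the 14 above background on both arrays, 10 were higher and 1 lower by as much. Oxtr, the oxytocin receptor by which myoepithelial cells eject milk, read 2.24 on the tumour-derived array and -5.54 on the source array, at least 89.4-fold higher. Acta2, the smooth muscle actin of the same cells, was at least 3.50-fold higher with an SD of 2.24 between its probes, and Cnn1 and Myh11 were dim on both arrays.

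General epithelial genes differed about as often as all genes did. Of 48 genes of epithelium and cell junctions, all measured, 7 were higher and 4 lower by 2-fold or more on the tumour-derived array, with a median difference of 0.34. These are 14.6% higher and 8.33% lower, against 14.6% and 10.4% over all genes. Epcam read 4.43 on the tumour-derived array and 3.80 on the source array. Cdh1, or E-cadherin, read 3.80 on the tumour-derived array and 4.04 on the source array. Krt8 and Krt18, the simple epithelial keratins, were 1.40-fold and 1.58-fold higher, and Krt7 was 3.13-fold higher. The exceptions included Cldn6, a claudin of embryonic epithelium, at least 39.6-fold higher, and Cldn22, at least 26.4-fold lower.

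The transcription factors of the Müllerian tract were more often lower than higher. Of 28 such factors and hormone receptors, 22 were measured, 2 higher and 9 lower by 2-fold or more on the tumour-derived array, with a median difference of -0.89. The 2 higher were Irx3 and Irx5, whose folds are given below with the Iroquois genes, and the highest difference of the list was 4.58. Msx1, a homeobox factor of the duct epithelium, read -3.98 on the tumour-derived array and 3.99 on the source array, 251-fold lower. Foxa2, the pioneer factor of uterine gland epithelium, read -1.11 on the tumour-derived array and 3.73 on the source array, 28.7-fold lower. Across the other 4 arrays Msx1 read 1.24 to 5.22 and Foxa2 2.49 to 4.33, so for both genes the low level was that of the tumour-derived array. Sox17 read -0.42 on the tumour-derived array and 2.33 on the source array, 6.73-fold lower. Gata6 was dim on the tumour-derived array at -6.07 and read -0.02 on the source array, at least 23.3-fold lower. Wt1, a marker of serous and mesothelial lineages, was dim on the tumour-derived array at -5.82 and read 1.65 on the source array, at least 74.0-fold lower. Neither gene was bright in all the other cultures, since Wt1 was dim in both Apc/Trp53 cultures and the control, and Gata6 was dim in the Apc/Trp53 source at -7.08. Meis1 was 4.40-fold lower, and the progesterone receptor gene Pgr 2.16-fold lower with an SD of 1.17 between its probes.

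Other oviduct genes differed in both directions, and several of the best known by less than 2-fold. Emx2, a homeobox gene of the urogenital tract, read 3.54 on the tumour-derived array and 3.82 on the source array. Pax8 read -0.99 on the tumour-derived array and -0.09 on the source array, 1.86-fold lower, and Pax2 was 1.63-fold higher. Of 27 secretory oviduct genes, 24 were measured, 5 higher and 6 lower by 2-fold or more, a larger share each way than over all genes, with a median difference of -0.31. Ovgp1, the oviduct glycoprotein, read 2.45 on the tumour-derived array and 2.77 on the source array. Spp1 (osteopontin) and Clu (clusterin), which are also abundant in mammary cells, were 6.33-fold and 4.69-fold higher. Of 42 multiciliated cell markers, 18 were measured, 7 of them higher, 6 with dim signals at the limit, and 2 lower by 2-fold or more. Another 23 were dim on both arrays, among them Tekt1, Dnah5 and Dynlrb2, and Foxj1 read -2.30 on the tumour-derived array and -3.40 on the source array. Of 28 kidney and urothelial genes, 7 of 18 measured were at least 2-fold higher and 5 lower. Umod was dim on the tumour-derived array at -6.76 and read 2.50 on the source array, at least 133-fold lower, and Gulo, which completes the making of vitamin C, was 180-fold lower. Gulo was 79.8-fold higher in the Apc/Trp53 pair. Of 33 gastrointestinal genes 17 were measured, 5 at least 2-fold higher and 5 lower, among them Krt20, 46.7-fold higher, and Spdef, a factor of mucous cells, 21.0-fold lower. Clca1, also of mucous cells, read -0.09 on the tumour-derived array and 5.24 on the source array.

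Hox genes, which set position along the body axis, differed in both directions. Hoxb7 read 3.93 on the tumour-derived array and 3.92 on the source array. Of 32 Hox genes, 15 were measured, 2 higher and 6 lower by 2-fold or more, 4 with dim signals at the limit. Hoxb9 was at least 17.7-fold higher, Hoxd4 and Hoxd8 were 5.63-fold and 3.92-fold lower, and Hoxc4, at -0.73 on the source array and dim on the other 5, was at least 14.3-fold lower on the tumour-derived array. Hoxc8 and Hoxa10 were dim on both. The Iroquois homeobox genes were listed after their values were seen. Irx1 read 6.28 on the tumour-derived array and -6.42 on the source array, at least 1466-fold higher, the largest lower bound of any gene that was above background on the tumour-derived array alone of the pair. Irx2 and Irx3 were 58.2-fold and 23.4-fold higher, Irx5 at least 4.77-fold and Irx4 at least 2.03-fold, and Irx6 was dim on both arrays. Irx1 was dim on the other 4 arrays, and Irx3 read 1.42 in the control, close to its 2.26 on the tumour-derived array.

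**Figure D2:**
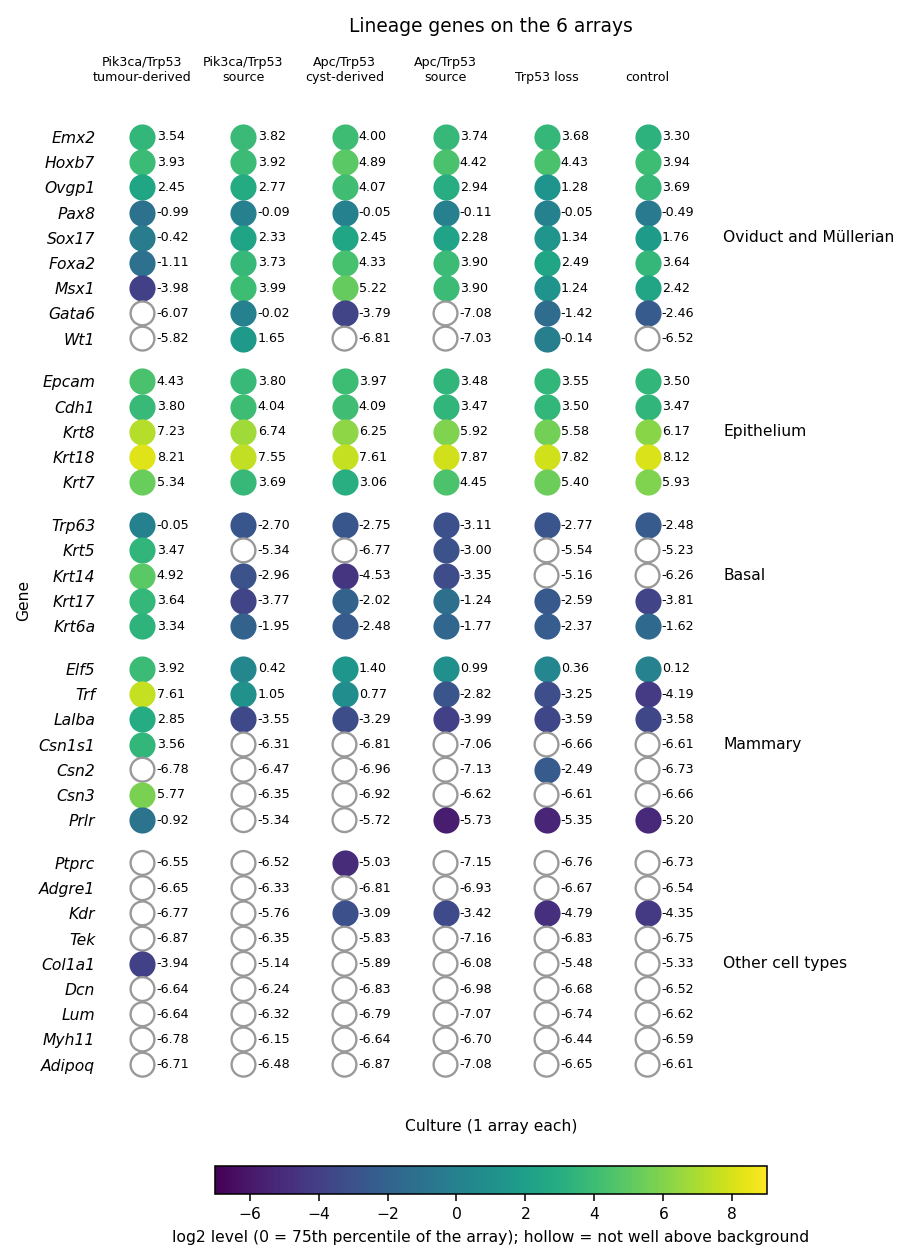
Level of lineage and cell-type genes on each of the 6 arrays (1 culture each, printed beside each point, log2 with 0 at the array's 75th percentile); hollow points were not well above background. Keratins 5, 14 and 17 and the caseins Csn1s1 and Csn3 are bright on the tumour-derived array only, Msx1 and Foxa2 are low there, Epcam and Krt18 are bright on all 6, and Adgre1, Tek, Dcn, Lum, Myh11 and Adipoq are dim on all 6.

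Markers of host cells that a tumour could carry over were measured beside these genes. Of 31 leukocyte markers 16 were measured and 15 were dim on both arrays. Of the defining genes Ptprc and Adgre1 were dim on both, whereas Cd3e, Cd68 and Csf1r were above background on 1 array or both. The summed level of the measured markers (log2 of the sum of their unlogged levels) was 6.26 on the tumour-derived array and 5.02 on the source array. The 6 that were at least 2-fold higher included the alarmins S100a8, 27.3-fold, and S100a9, at least 17.0-fold, and 2 were lower. Of the 10 above background on both arrays, 3 were higher and 0 lower by as much. Of 26 fibroblast markers 11 were measured, 8 of them at least 2-fold higher, 6 with dim signals at the limit, and the summed level was 4.40 on the tumour-derived array and 3.26 on the source array. Of these 6 were measured through the tumour-derived array alone, and of the 5 above background on both arrays 2 were at least 2-fold higher and 0 lower. Dcn, Lum and Col3a1 were dim on both arrays, while Col1a1 read -3.94 on the tumour-derived array, at least 1.23-fold above the source array, and Postn (periostin) was at least 89.9-fold higher. Col1a2 and Pdgfra were also above background on 1 array or both. Of 22 endothelial markers 12 were measured, 3 at least 2-fold higher and 4 lower. Kdr and Tek were dim on both arrays, whereas Pecam1 was above background on 1 array or both. Cdh5 read -2.36 on the tumour-derived array and -2.02 on the source array, and the summed level of the endothelial markers was 3.50 on the tumour-derived array and 4.80 on the source array. Of 23 adipose and skeletal muscle markers 9 were measured, 5 of them at least 2-fold higher. Adipoq, Plin1, Acta1 and Ckm were dim on both, whereas the lipid genes Fabp4, at least 33.6-fold, and Cidec, at least 11.1-fold, were higher, and the summed level was 2.77 on the tumour-derived array and 1.57 on the source array. Of 20 smooth muscle and pericyte markers 11 were measured, 6 of them at least 2-fold higher, with summed levels of 5.62 on the tumour-derived array and 5.57 on the source array. Des, Myh11 and Cnn1 were dim on both, whereas Acta2 and Tagln were above background on 1 array or both. Of 19 mesothelial markers 13 were measured, 9 at least 2-fold higher and 2 lower, with summed levels of 8.81 on the tumour-derived array and 7.04 on the source array. Of the 8 mesothelial markers above background on both arrays, 5 were higher and 1 lower by as much. Msln, or mesothelin, was 3.68-fold higher, Pdpn 25.2-fold and Igfbp5 146-fold, while Lrrn4 was dim on both. Upk3b was above background on 1 array or both, and Wt1 on the source array alone of the pair.

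Genes that ERK signalling induces were higher on the tumour-derived array than on its source array. Of 29 such genes 28 were measured, 19 at least 2-fold higher, 17 with dim signals at the limit, and 0 lower by as much, with a median difference of 1.63. Of the 21 above background on both arrays, 12 were higher by as much and 0 lower. The median level of the measured members was 0.08 on the tumour-derived array and -1.23 on the source array. It was 0.29 with Trp53 loss alone, -0.14 in the control, -0.24 in the Apc/Trp53 source and -1.22 on the cyst-derived array. The source array was thus the lowest of the 6 by this median, and the tumour-derived array lay below Trp53 loss alone. Dusp6, the phosphatase that switches ERK off, read 5.6 on the tumour-derived array and 3.93 on the source array, 3.19-fold higher. The ETS factors Etv1, Etv4 and Etv5 were 38.6-fold, 3.85-fold and 5.77-fold higher. Fosl1 read -2.40 on the tumour-derived array and was dim on the source array, at least 3.59-fold higher, and the feedback inhibitor Spry4 was at least 2.82-fold higher. Etv1 read 0.92 with Trp53 loss alone and 0.22 in the control, so its source level of -3.72 was the lowest of the 6. Fosl1 likewise read -1.96 with Trp53 loss alone and -2.31 in the control, and was dim on the Pik3ca/Trp53 source array and the cyst-derived Apc/Trp53 array.

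Immediate early genes, the AP-1 and EGR factors that cells switch on within minutes of stimulation, were also more often higher than lower. Egr1, Egr2, Egr3 and Fosl1 are among the genes that stand in both this list and the ERK list, so these lists are not separate results. Of 24, all measured, 14 were higher and 1 lower by 2-fold or more, with a median difference of 1.43. Of the 18 above background on both arrays, 8 were higher and 1 lower by as much. Egr1 read 3.78 on the tumour-derived array and 1.43 on the source array, 5.09-fold higher. Egr2 read -0.57 and was dim on the source array, at least 12.8-fold higher, and Egr3 was at least 6.32-fold higher. Klf6, Dusp1 and Atf3 were 4.0-fold, 5.32-fold and 2.94-fold higher. Fos and Jun, the founding members of AP-1, differed by less than 2-fold, at 1.64-fold higher and 1.81-fold lower. Serum response factor acts on immediate early genes through the CArG box, which was found on either strand in 1.47% of the 32851 promoters and in 2 of the 20 immediate early genes in the table, Egr2 and Zfp36. Zfp36, named for its match, was 1.86-fold higher. The Egr2 promoter is shown because that gene had the largest difference of the list, with its 1 match in capitals, 72 to 63 bases before 1 of its 5 RefSeq starts, at chr10:67537316-67537565 on the plus strand (GRCm38.p6).
Egr2: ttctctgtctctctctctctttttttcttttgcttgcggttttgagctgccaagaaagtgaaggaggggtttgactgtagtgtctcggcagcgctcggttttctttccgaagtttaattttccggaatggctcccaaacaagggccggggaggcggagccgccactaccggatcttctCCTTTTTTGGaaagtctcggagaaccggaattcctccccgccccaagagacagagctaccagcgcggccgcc
The capitals mark a match of letters and not a bound site.

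FOXO targets were more often higher than lower on the tumour-derived array. Of 30, 25 were measured, 12 of them higher and 1 lower by 2-fold or more, with a median difference of 0.96. Fbxo32, a ubiquitin ligase of muscle wasting, read 1.99 on the tumour-derived array and -3.32 on the source array, 39.6-fold higher. Trim63, its companion ligase, was at least 5.37-fold higher. Pck1, the gluconeogenic enzyme, was 12.4-fold, Cited2 6.15-fold and Irs2, the insulin receptor substrate, 5.55-fold higher. Klf15 and Pdk4, which FOXO also induces, were dim on both arrays. Of 31 pathway components 30 were measured, 5 higher and 2 lower by 2-fold or more, with a median difference of 0.27. These are 16.7% higher and 6.67% lower, against 14.6% and 10.4% over all genes. Akt1 differed by 1.01-fold, Pik3r3, a regulatory subunit, was 2.93-fold lower and Phlpp1, a phosphatase of AKT, 2.76-fold higher. Pik3cg, the catalytic subunit best known from leukocytes, was at least 2.78-fold higher.

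YAP targets, which report on cell spreading and tension, had 23 of 24 members measured, 10 higher and 2 lower by 2-fold or more, with a median difference of 0.96. The median level of the measured members was 0.79 on the tumour-derived array and 0.36 on the source array. It was -0.09 on the cyst-derived array, and higher in the Apc/Trp53 source (0.98), with Trp53 loss alone (1.48) and in the control (2.04). Ankrd1 read 0.44 on the tumour-derived array and was dim on the source array, at least 25.6-fold higher, but it read 0.44 in the control as well. Ccn1 was 3.03-fold higher and Ccn2 1.56-fold lower, though the 2 encode related matricellular proteins that YAP induces. Axl was at least 4.17-fold and F3, the tissue factor, 3.61-fold higher. Nuak2 was 2.97-fold lower.

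**Figure D3:**
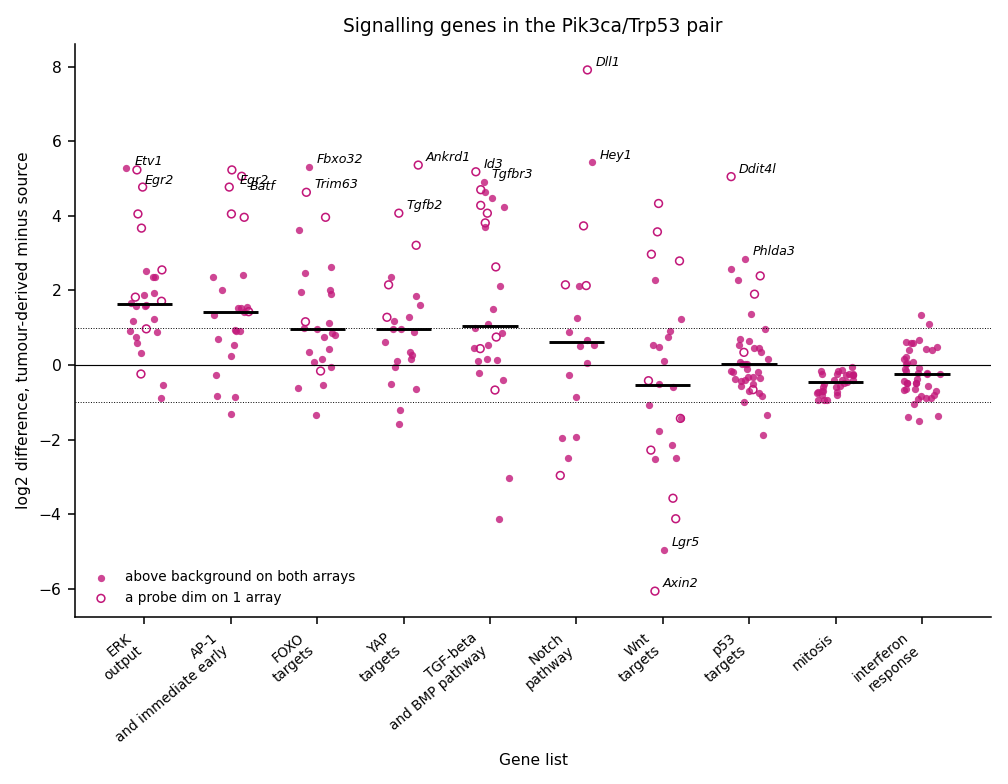
Difference between the tumour-derived and source arrays (log2, 1 array each) for each measured member of 10 gene lists, with bars at the medians. Filled points were above background on both arrays, and hollow points had a probe dim on 1 array. Hollow points are drawn at the difference as measured, which can lie further from 0 than the bound behind an "at least" fold in the text. ERK and immediate early genes lie mostly above 0, all mitosis genes lie just below 0, and Wnt targets spread from Axin2 at -6.06 to Cd44 at 4.33.

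Wnt targets were split. Of 31, 26 were measured, 6 higher and 12 lower by 2-fold or more, with a median difference of -0.55. Axin2, the most general feedback target of beta-catenin, was dim on the tumour-derived array at -6.76 and read -0.70 on the source array, at least 14.5-fold lower. Lgr5, the R-spondin receptor of many stem cells, read -4.28 on the tumour-derived array and 0.66 on the source array, 30.8-fold lower. Nkd1 was at least 2.47-fold and Apcdd1 at least 3.72-fold lower, the Wnt deacylase Notum 2.08-fold lower, and the receptor gene Tnfrsf19 at least 17.4-fold lower with an SD of 3.80 between its 2 probes. Each of Axin2, Lgr5, Notum and Apcdd1 was lower on the tumour-derived array than on any of the other 5. The members that were higher included Cd44, at least 11.9-fold, Nkd2, at least 3.59-fold with an SD of 4.13 between its probes, and T (brachyury), at least 2.83-fold. Sp5, a transcription factor and direct target, is shown for its promoter although it was chosen after its values were seen. It read -0.92 on the tumour-derived array and 1.61 on the source array, 5.78-fold lower. The site of the TCF factors that carry beta-catenin to DNA, CTTTGAT on either strand, was found in 3.21% of the 32851 promoters and in 2 of 20 Wnt targets in the table, Sp5 and Tnfrsf19. The Sp5 bases lie at chr2:70474673-70474922 on the plus strand (GRCm38.p6), with the match in capitals 104 to 98 bases before the start.
Sp5: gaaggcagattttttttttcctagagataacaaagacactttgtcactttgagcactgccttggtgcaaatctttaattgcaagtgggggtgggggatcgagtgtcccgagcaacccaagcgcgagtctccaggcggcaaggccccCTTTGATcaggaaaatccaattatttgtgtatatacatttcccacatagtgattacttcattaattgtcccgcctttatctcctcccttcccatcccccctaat
Both Wnt targets with a match were at least 2-fold lower on the tumour-derived array, but so were 12 of the 26 measured. Sp5 was chosen after its values were seen, so a link between match and direction cannot be read from these 2 genes.

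Wnt ligands and receptors, listed after their values were seen, had 31 of 42 members measured, 14 at least 2-fold higher, 12 with dim signals at the limit, and 4 lower by as much. Of these 8 were measured through the tumour-derived array alone, and of the 22 above background on both arrays 6 were higher and 3 lower by as much. Fzd10, a Frizzled receptor, was dim on the tumour-derived array at -6.67 and read 3.69 on the source array, at least 306-fold lower, and it read 3.33 to 5.21 on the other 4 arrays. Fzd10os, named as its opposite strand transcript, was at least 285-fold lower, and the probes of overlapping genes may share signal. Wnt11 was at least 27.8-fold lower. Wnt5b and Wnt4 were 25.5-fold and 4.59-fold higher, and the secreted Wnt inhibitors Sfrp1 and Sfrp2 at least 20.2-fold and at least 6.67-fold higher. Of 14 hedgehog genes, listed at the same point, 4 of 10 measured were at least 2-fold higher, 3 with dim signals at the limit, and 2 lower. They held Ihh, which was dim on the tumour-derived array and read 2.06 on the source array, at least 98.8-fold lower, and Dhh and Gas1, at least 13.7-fold and at least 25.1-fold higher. The targets Gli1 and Hhip were dim on both arrays.

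Notch genes differed in both directions. Of 24, 18 were measured, 7 higher and 4 lower by 2-fold or more, with a median difference of 0.61. Of these 4 were measured through the tumour-derived array alone, and of the 13 above background on both arrays 3 were higher and 3 lower by as much. The ligand Dll1 read 1.46 on the tumour-derived array and -6.45 on the source array, at least 52.1-fold higher, and was dim on all the other arrays. Hey1, a target gene, read 4.79 on the tumour-derived array and -0.64 on the source array, 43.1-fold higher. Nrarp, a feedback inhibitor, was at least 6.35-fold higher, Hes1 1.42-fold higher and the receptor Notch1 5.65-fold lower.

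Genes of TGF-beta and BMP signalling were more often higher than lower. Of 30, 28 were measured, 14 higher and 2 lower by 2-fold or more, with a median difference of 1.04. Of the 24 above background on both arrays, 10 were higher and 2 lower by as much. Tgfb3 was 18.8-fold higher, and the coreceptor Tgfbr3 read 1.70 on the tumour-derived array and -3.21 on the source array. Bmp2 was 22.1-fold and Inhba, an activin subunit, at least 10.6-fold higher. The latent TGF-beta binding protein Ltbp2 and the inhibitor Pmepa1 were 25.2-fold and 12.9-fold higher. The BMP targets Id1 and Id3 were 4.34-fold and at least 7.58-fold higher. Tgfbi, a TGF-beta target, read 0.81 on the tumour-derived array and 4.92 on the source array, 17.3-fold lower.

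Among growth factors, Igf1 read 1.48 on the tumour-derived array and -3.12 on the source array, 24.1-fold higher. Of 16 IGF ligands and binding proteins 13 were measured, 6 at least 2-fold higher and 3 lower. Igfbp5 read 7.10 on the tumour-derived array and -0.09 on the source array, 146-fold higher, whereas Igfbp2 was at least 18.3-fold and Igfbp4 5.78-fold lower. H19, the imprinted transcript next to Igf2, was at least 21.2-fold higher, and Igf2 was dim on both arrays. Of 17 EGF family genes 13 were measured, 5 at least 2-fold higher and 2 lower. Egfr was 2.39-fold and the ligand Hbegf 2.25-fold higher, Areg at least 2.68-fold, and Nrg4 5.33-fold lower. Of 16 FGF genes 10 were measured, 6 at least 2-fold higher, 3 with dim signals at the limit, and 1 lower, and the median of 1.66 became 0.21 with dim signals at the limit. Fgfr1 read 0.44 on the tumour-derived array and -5.11 on the source array, at least 16-fold higher, and Fgf18 was 5.07-fold lower.

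Most p53 targets differed by less than 2-fold. Of 40, 39 were measured, 7 at least 2-fold higher, 5 with dim signals at the limit, and 2 lower by as much, with a median difference of 0.02 and, at any size, 20 higher and 19 lower. The 7 and 2 are 17.9% and 5.13%, against 14.6% higher and 10.4% lower over all genes. Cdkn1a, the p21 inhibitor, read -0.96 on the tumour-derived array and -2.85 on the source array, at least 1.71-fold higher, and 2.45 in the control. Mdm2, which degrades p53 and is its target, read -0.54 on the tumour-derived array and -0.56 on the source array, against 1.03 in the control. Phlda3 read 3.07 on the tumour-derived array and 0.23 on the source array, 7.16-fold higher, and 5.23 in the control. Fas and Bbc3 (PUMA), death genes, were 5.93-fold and 4.86-fold higher, and Ddit4l at least 10.7-fold. Fas and Bbc3 read higher on the tumour-derived array than in the control, at -1.72 and 0.88.

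Proliferation genes were slightly lower. Of 30 mitosis genes, all measured, none differed by 2-fold, and all 30 were lower on the tumour-derived array, with a median difference of -0.46 and a range from -0.95 to -0.05. Mki67 read 3.21 on the tumour-derived array and 3.61 on the source array. Of 32 DNA replication genes 31 were measured, none differing by 2-fold and 27 lower, with a median of -0.41. Scaling each array to its median in place of its 75th percentile moved the mitosis median to -0.63 and the replication median to -0.57, with the median over all genes at -0.21, against -0.04 as reported. Both arrays stood above all the others but the cyst-derived array in Mki67, which read 3.73 there, 2.18 in the Apc/Trp53 source, 1.63 with Trp53 loss alone and 0.95 in the control. Of 16 genes of CDK inhibitors and the Rb axis, all measured, 3 were at least 2-fold higher, 2 with dim signals at the limit, and none lower. The 3 are 18.8%, near the 14.6% over all genes. Rb1, the brake on the S-phase genes, read 1.37 on the tumour-derived array and -2.33 on the source array, at least 13.0-fold higher, and it was between -2.0 and -1.21 on the other 4 arrays. Ccnd2 was 3.82-fold and Cdkn1b 1.94-fold higher, and Cdkn2a, which carries both p16 and p19 transcripts, 1.74-fold lower.

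Most interferon-response genes differed by less than 2-fold. Of 44, 42 were measured, 2 higher and 4 lower by 2-fold or more, with a median difference of -0.25. Isg15 read 5.64 on the tumour-derived array and 6.02 on the source array, and Ifit1 read 1.17 on the tumour-derived array and 0.95 on the source array. These levels were above those of the other cultures sampled before inoculation, in which Isg15 read 2.02 to 3.32 and Ifit1 -2.52 to -1.97. Of 22 antigen presentation genes 19 were measured, 1 at least 2-fold higher and 2 lower. B2m, the light chain of MHC class I, read 5.91 on both arrays. H2-Ab1, a class II chain, was 3.20-fold higher while the class II chaperone Cd74 was 2.83-fold lower and Ciita, the class II activator, at least 2.79-fold lower.

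Acute phase and alarm genes were higher. Of 32 cytokines, alarmins and acute phase genes 29 were measured, 19 at least 2-fold higher, 18 with dim signals at the limit, and 0 lower by as much, with a median difference of 1.14. Of the 25 above background on both arrays, 15 were higher and 0 lower by as much. Saa1, serum amyloid A, read 5.27 on the tumour-derived array and -2.77 on the source array, 263-fold higher, the largest fold among genes above background on both. Saa2 read 5.95 on the tumour-derived array and was dim on the source array, at least 1168-fold higher, and Saa3 was 13.1-fold higher. Saa1 and Saa2 are near-identical genes whose probes may share signal, so the 2 values may not be separate measurements. Il1a, an alarmin of epithelium, was 5.85-fold, and the cytokine Csf2 at least 7.86-fold higher. Lcn2, an iron-binding defence protein, was 2.26-fold higher and complement C3 1.27-fold lower. Of 22 chemokines 17 were measured, 5 at least 2-fold higher and 4 lower. Cxcl12 read 0.48 on the tumour-derived array and was dim on the other 5, at least 26.4-fold above its source, and Cxcl15 was dim on the tumour-derived array and at least 80.4-fold lower. Ppbp, another chemokine gene, was 91.2-fold higher than in the source and read 2.0 in the control.

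Matrix and mesenchymal genes that were above background on both arrays were more often higher than lower on the tumour-derived array, and others were above background there alone. Of 31 collagens 18 were measured, 13 at least 2-fold higher, 11 with dim signals at the limit, and 0 lower, with a median of 3.11, or 1.96 with dim signals at the limit. Of the collagens 8 were measured through the tumour-derived array alone, and of the 10 above background on both arrays 5 were at least 2-fold higher and 0 lower. Col9a1 and Col9a2, chains of a cartilage collagen, were at least 131-fold and 68.4-fold higher. Col8a1 read 0.40 on the tumour-derived array and -3.92 on the source array, while the basement membrane chains Col4a1 and Col4a2 differed little, at 1.69-fold and 1.11-fold lower. Of 25 genes of epithelial-mesenchymal transition 20 were measured, 13 at least 2-fold higher and 0 lower, with a median of 2.22, or 1.39 with dim signals at the limit. Of these 8 were measured through the tumour-derived array alone, and of the 12 above background on both arrays 5 were at least 2-fold higher and 0 lower. Snai1 and Snai2, repressors of E-cadherin, were at least 10.5-fold and at least 2.82-fold higher, Vim at least 8.98-fold, Cdh2 at least 7.0-fold and Sparc at least 30.8-fold, whereas Fn1 was 1.61-fold lower and Zeb1 dim on both arrays. Sparcl1, a relative of Sparc, was at least 719-fold higher. Of 37 matrix proteases and inhibitors 24 were measured, 10 at least 2-fold higher and 2 lower. Mmp13 was at least 36.7-fold and Timp3 29.0-fold higher, and Mmp7, an epithelial protease of the oviduct cultures, 1.98-fold lower. Of 29 integrins and laminins 25 were measured, 8 at least 2-fold higher and 4 lower. Itgb3 was at least 32.7-fold and Itga8 16-fold higher, and Itgb4 of the basal adhesion differed by 1.97-fold.

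Metabolic genes divided by pathway. Of 34 genes of cholesterol and fatty acid synthesis, all measured, 1 was higher and 15 lower by 2-fold or more, with a median difference of -0.93. Mvd read 0.27 on the tumour-derived array and 2.67 on the source array, 5.29-fold lower. Cyp51 and Dhcr7, enzymes of sterol synthesis, were 2.95-fold and 2.77-fold lower, and Hmgcs1 2.10-fold. Fasn was 2.15-fold and the lipogenic factor Thrsp at least 135-fold lower, while the desaturase Scd1 was 3.84-fold higher. Of 32 glutathione and NRF2 genes measured, of 33, 5 were at least 2-fold higher and 11 lower. The glutathione transferases Gstm1, Gstm2 and Gstm3, which are close copies of each other, were 6.19-fold, 7.01-fold and 6.44-fold lower and Gpx2 5.95-fold, but Nqo1, a standard NRF2 target, was 21.2-fold higher. Of 30 genes of amino acid and ER stress measured, of 31, 4 were at least 2-fold higher and 7 lower, among them Phgdh, the first enzyme of serine synthesis, 3.63-fold lower. Of 35 glycolysis and hypoxia genes, all measured, 3 were at least 2-fold higher and 2 lower. Car9 was 4.87-fold and the glucose transporter Slc2a1 2.06-fold higher, Ldha 1.19-fold lower and Slc2a3 at least 3.44-fold lower.

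Retinoid genes differed in both directions. Of 19 retinoid genes 15 were measured, 5 at least 2-fold higher and 5 lower. Aldh1a3, a retinoic acid synthase, read 3.72 on the tumour-derived array and -1.34 on the source array, 33.4-fold higher, while its relative Aldh1a1 was 15.1-fold lower. The degrading enzymes Cyp26a1 and Cyp26b1 were at least 10.1-fold and 4.11-fold higher. Of 22 stem and progenitor genes 20 were measured, 4 at least 2-fold higher and 2 lower, with Ly6a 3.90-fold and Hmga2 2.98-fold higher.

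Outside the lists, the largest differences above background on both arrays were Pdlim3, a muscle cytoskeleton protein, 218-fold higher, Lrrc32, which binds latent TGF-beta, 142-fold, and Gng11, a G protein subunit, 102-fold. Apod, an apolipoprotein, was at least 211-fold and Cck, the peptide hormone, at least 145-fold higher. On the lower side stood Bex1, at least 108-fold, A2ml1, a protease inhibitor, at least 64.7-fold, Gstm7, 39.2-fold, Tmem212 of ciliated cells, 34.1-fold, Antxr1, 28.0-fold, and the lymphotoxin gene Ltb, 25.1-fold. Bex1 read 2.02 to 4.13 on the other 4 arrays and A2ml1 2.25 to 3.92, so both were dim on the tumour-derived array alone.

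The Apc/Trp53 pair, which shares no array with the Pik3ca/Trp53 pair, gives the values of the same genes after growth in the animal. Over 13932 genes measured in both pairs, 321 were at least 2-fold higher in both, 20.5% of those higher in the Pik3ca/Trp53 pair and 27.3% of those higher in the Apc/Trp53 pair. Over all of these genes 11.2% were higher and 10.1% lower in the Pik3ca/Trp53 pair, and 8.43% were higher and 7.53% lower in the Apc/Trp53 pair. Another 154 were at least 2-fold lower in both, 11% of those lower in the Pik3ca/Trp53 pair and 14.7% of those lower in the Apc/Trp53 pair. In opposite directions were 374 genes higher in the Pik3ca/Trp53 pair and lower in the Apc/Trp53 pair, which is 23.9% of those higher in the Pik3ca/Trp53 pair and 35.7% of those lower in the Apc/Trp53 pair. The other way were 319 genes, 22.7% of those lower in the Pik3ca/Trp53 pair and 27.1% of those higher in the Apc/Trp53 pair. Across these genes, which are not independent replicates, the differences of the 2 pairs correlated at -0.07. Interferon-response genes had a median difference of -0.25 in the Pik3ca/Trp53 pair and 2.11 in the Apc/Trp53 pair, mitosis genes -0.46 in the Pik3ca/Trp53 pair and 1.01 in the Apc/Trp53 pair, and mammary genes 2.84 in the Pik3ca/Trp53 pair and -0.13 in the Apc/Trp53 pair. With 1 array per culture, the difference between the pairs could not be tested.

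**Figure D4:**
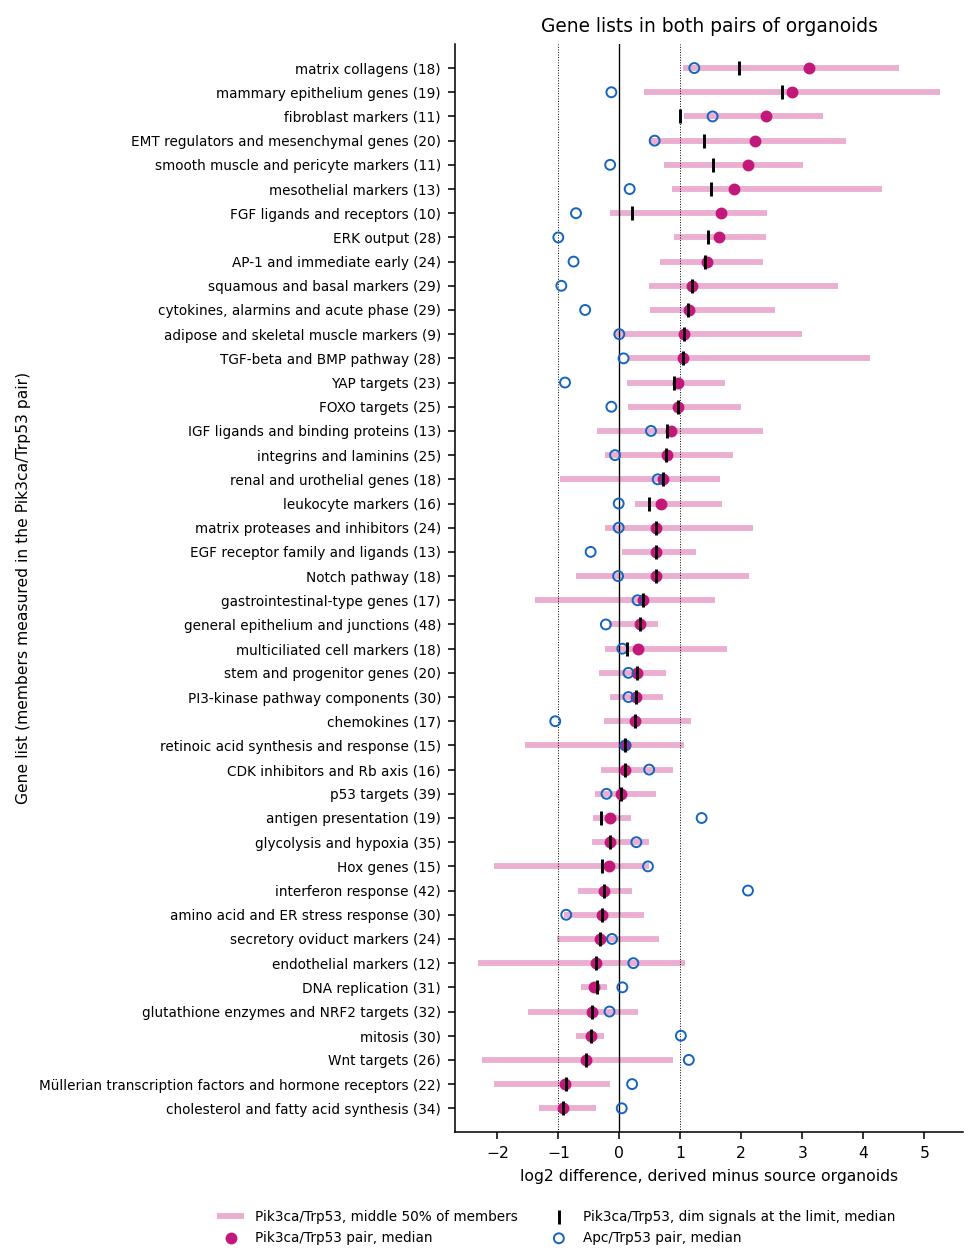
Median log2 difference of 44 gene lists in the Pik3ca/Trp53 pair (filled points, with a bar over the middle 50% of members and a tick for the median with dim signals at the background limit) and in the Apc/Trp53 pair (hollow points), 1 array per culture; dotted lines mark 2-fold. Collagens (3.11) and mammary genes (2.84) top the list in the Pik3ca/Trp53 pair, and interferon-response genes, at -0.25, lie far to the left of their 2.11 in the Apc/Trp53 pair.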

How the data were processed

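Cy3-labelled RNA from organoids of mouse fallopian tube was hybridised to one-colour Agilent arrays, 1 for each of 6 cultures. The authors deposited scanner output, made according to the submitters' processing notes with Agilent Feature Extraction (11.0.1.1), whose processed intensity per spot is background-subtracted, per the file headers. The log2 of that intensity minus the array's 75th percentile was taken here, control and outlier spots left out, copies of a probe and then probes of a gene averaged, and probes kept that were well above background on 1 or both arrays of the pair. Probes were named here by matching their accessions to RefSeq gene annotation, where an accession gave 1 gene. This named 34566 of 56605 probes, for 23787 genes, and 22039 probes stayed unnamed. The deposited log2 value table holds 2047 of the probes; its column medians were -0.05 (tumour-derived) and 0.15 (source) in the Pik3ca/Trp53 pair, -0.20 (cyst-derived) and -0.32 (source) in the Apc/Trp53 pair, -0.02 with Trp53 loss alone and 0.03 in the control. Its differences between arrays correlated with the scanner differences at 1.000, so its direction is that of the scanner values. A correlation does not fix the scale, which was not compared, and the centring of the value table stays unknown.

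With 1 array per culture there is no test, so the precision is limited by their number; a gene is called at 2-fold. The pair, the 44 gene lists and the tests were chosen with earlier results of these data known, and 8 further lists (mammary factors, myoepithelial, Iroquois, salivary, Schwann, ionocyte, Wnt ligands, hedgehog) after these values were seen. Genes were named as the 3 altered genes, the 20 largest differences each way above background on both arrays, the 12 largest bounds each way above background on 1 array, and per list its core members and its 8 largest differences. Glycam1, Foxa1, Gata3, Stat5a, S100b, Foxd3, Cdh19, Ascl3, Irx6, Zfp36, Sp5, Wnt4, Gli1 and Hhip lie outside that rule and were chosen after their values were seen. Promoters are from RefSeq on GRCm38.p6. Alternatives covered scaling, background correction, probe filters, probe averaging, the deposited value table and the fold threshold. The fold counting was checked on simulated data. Python 3.11.15 was used (matplotlib 3.10.9, pandas 2.3.3, numpy 2.4.6), with limma 3.58.1 under R 4.3.3 for quantile scaling and normexp. Some genes are not reported here.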

Additional observations from a re-analysis of the deposited data

Results flagged for a closer look

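For 7 gene lists the median difference had opposite signs in the 2 pairs and a size of at least 0.5 in each, which share no array; with 1 array per culture the difference between the pairs was not tested. Wnt targets had a median of -0.55 in the Pik3ca/Trp53 pair and 1.14 in the Apc/Trp53 pair, the only one of the 7 that was lower in the Pik3ca/Trp53 pair. Genes of ERK output had medians of 1.63 in the Pik3ca/Trp53 pair and -1.0 in the Apc/Trp53 pair, and immediate early genes 1.43 in the Pik3ca/Trp53 pair and -0.75 in the Apc/Trp53 pair. The ERK and immediate early lists share members, among them Egr1, Egr2, Egr3 and Fosl1. YAP targets had 0.96 in the Pik3ca/Trp53 pair and -0.89 in the Apc/Trp53 pair. Squamous and basal markers had 1.19 in the Pik3ca/Trp53 pair and -0.95 in the Apc/Trp53 pair, and cytokines, alarmins and acute phase genes 1.14 in the Pik3ca/Trp53 pair and -0.56 in the Apc/Trp53 pair. FGF ligands and receptors had 1.66 in the Pik3ca/Trp53 pair and -0.71 in the Apc/Trp53 pair, from 10 genes each, but with dim signals at the limit the first of these medians was 0.21, below the size of 0.5. Single genes followed: Nkd1, a Wnt target, was at least 2.47-fold lower in the Pik3ca/Trp53 pair and 20.7-fold higher in the Apc/Trp53 pair, and Fgfbp1 was 4.23-fold higher in the Pik3ca/Trp53 pair and 7.43-fold lower in the Apc/Trp53 pair.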

How the results depend on the processing

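No paired analysis was possible because each culture is 1 array. Counts of genes at least 2-fold higher and lower, 2148 and 1537, or 58.3% higher, became 1923 and 1970 (49.4%) with each array scaled to its median, and 1129 and 765 with normexp on the median signals, offset 50. That alternative was chosen after seeing the data, because the files hold no mean signal and the planned normexp was not run. With probes above background on both arrays the counts were 1133 and 1031, on all 6 arrays 998 and 982, and in the deposited value table, which covers 765 of the genes, 349 and 221. Thresholds of 1.5-fold gave 3226 and 3033, and of 4-fold 1175 and 646. The number of the 44 lists with a median of at least 1 was 13, against 3 with normexp, 5 without a filter and with the filters on both and on all 6 arrays, and 33 in the value table. Genes called the same way in both pairs numbered 475, and 240 with the filter on all 6 arrays. Without a filter the medians of fibroblast (-0.01), leukocyte (-0.03), adipose and muscle (-0.30) and Schwann (-0.04) markers changed sign, as did Wnt ligands and receptors in the value table (-2.28). Among genes, Trp63 (-0.09) and Mbp (0.38) changed sign with probes above background on both or all 6 arrays and with the brightest probe, and Mrc1 (-0.05), Cfap53 (-0.18) and Igfbp6 (-0.02) with dim signals at the limit. The cause was not tested, except that filters and the value table hold fewer genes. Of 492 named genes none changed sign under the 3 other scalings. Dim signals limit 1228 genes above background on the tumour-derived array alone of the pair and 503 on the source array alone.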

Other observations

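The differences were uneven between chromosomes. Chromosome 14 had the highest median difference, 0.30 over 507 measured genes and 0.25 over the 440 above background on both arrays, and of the 507 genes 19.5% were higher and 6.90% lower on the tumour-derived array by 2-fold or more. Chromosome 3 had the lowest, -0.25 over 725 measured genes and -0.29 over the 632 above background on both arrays, with 13.7% higher and 15.7% lower of the 725. Over the 20 chromosomes with a value, 14 and 3 were the ends of the range, and no cause was tested.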
